A study of Mus musculus with 8 samples.

Results

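The genes of the cell junctions that hold heart muscle cells together were followed in fetal mouse hearts that lack *Dio3*, the gene of the type 3 deiodinase, which inactivates thyroid hormones. They are *Dsg2*, *Dsc2*, *Jup*, *Pkp2* and *Dsp*, the desmosome genes of heart muscle, and *Cdh2*, *Ctnnb1*, *Ctnna1* and *Ctnna3*, the cadherin and catenins of its adherens junction. These 9 of the 26590 gene symbols in the deposited table were taken by their symbol, and each is represented by the transcript row whose mean was highest across the genotypes. All 9 were above 1 RPKM (a read count divided by transcript length and by sequencing depth) in both genotypes and all were tested.

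Whole hearts came from 4 *Dio3*+/+ and 4 *Dio3*-/- fetuses, 1 fetus per sample, with every fetus on the C57BL/6J background and no treatment named in the labels. The *Dio3*-/- line was made in the 129/SVJ strain and backcrossed, and it lacks the enzyme in all tissues, so an effect on the heart cannot be assigned to heart cells or to other organs. The titles of the labels give E13.5 for all 8 hearts. In the age field, however, hearts 3 and 4 of the *Dio3*-/- group carry E18.5, and the methods of the study name an age a day later than the titles. The table holds the authors' mean and coefficient of variation (CV, SD over mean) for each genotype and not the single hearts, so read depth per heart is unknown from it and a heart that stands apart cannot be seen directly. *Dio3* itself had a mean of 0.35 RPKM (CV 1.23) in *Dio3*+/+ and 0.13 RPKM (0.76) in *Dio3*-/- hearts, too low to check the genotype labels.

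Heart muscle cells meet end to end at the intercalated disc. In an adherens junction, a cadherin of one cell binds the same cadherin of the next, β-catenin or plakoglobin binds its tail, and an α-catenin links that complex to the actin filaments of the sarcomeres. In a desmosome, desmogleins and desmocollins take the place of the cadherin, plakoglobin and plakophilin bind their tails, and desmoplakin ties them to the desmin filaments. In the heart the junction types grow together into a mixed plaque, the area composita, mostly after birth. Inherited loss of the desmosomal proteins is a known cause of arrhythmogenic cardiomyopathy.

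One of the 9 genes passed the test between genotypes. *Ctnna1*, which encodes αE-catenin, was 36.9% higher in *Dio3*-/- hearts, a log2 change of 0.45 (SE 0.06, limma adjusted p = 0.00707). The other 8 did not pass, with log2 fold changes from -0.07 for *Dsc2* to 0.23 for *Jup*. In the same comparison, 336 of the 14657 genes tested passed with an adjusted p under 0.05, or 2.29% of the genes tested, made up of 1.91% that were higher and 0.382% that were lower in *Dio3*-/- hearts. The call of *Ctnna1* depended on the test. With an unmoderated test for unequal variances, calculated here on the log2 scale from the rounded summaries, its adjusted p was 0.0824 and 27 genes passed in place of 336. This is not the test of the study, which started from the samples themselves and is not repeated here. The share of higher genes among those that passed, 83.3%, became 71.7% when the genotypes were centered on all tested rows, 1.75% when centered on cardiomyocyte markers and 100% under the unmoderated test. An adjusted p here comes from limma's moderated test on log2(RPKM + 0.5), calculated from the means and CVs and adjusted by the Benjamini-Hochberg method over all 32703 rows tested. Of the 9 genes, 7 had a higher mean in *Dio3*-/- hearts, as did 63.3% of all genes tested. The median log2 fold change was 0.09 over the 9 and 0.04 over all. Taking levels relative to cardiomyocyte markers lowers the log2 fold change of every gene by 0.24, as if that shift were known without error. With that shift 6 of those 7 turned to the lower side, and 6663 of the 14657 genes tested passed as lower. These are whole hearts, so fewer cells of a type and less RNA per cell cannot be told apart.

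Because 4 values can never lie farther than 1.5 SD from their mean, each genotype has a range that none of its 4 hearts can leave, given here with the rounding of the table added. For *Ctnna1* the *Dio3*+/+ hearts had a mean of 96.55 RPKM (SD 6.76, n = 4), and each of them lay between 85.7 and 107.4 RPKM. The *Dio3*-/- hearts had a mean of 132.13 RPKM (SD 6.61, n = 4), and each lay between 121.2 and 143 RPKM. The genotypes therefore cannot overlap, with every *Dio3*-/- heart above every *Dio3*+/+ heart. *Ctnna1* was the only one of the 9 genes for which this held, and it held for 3.85% of all genes tested.

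**Figure D1:**
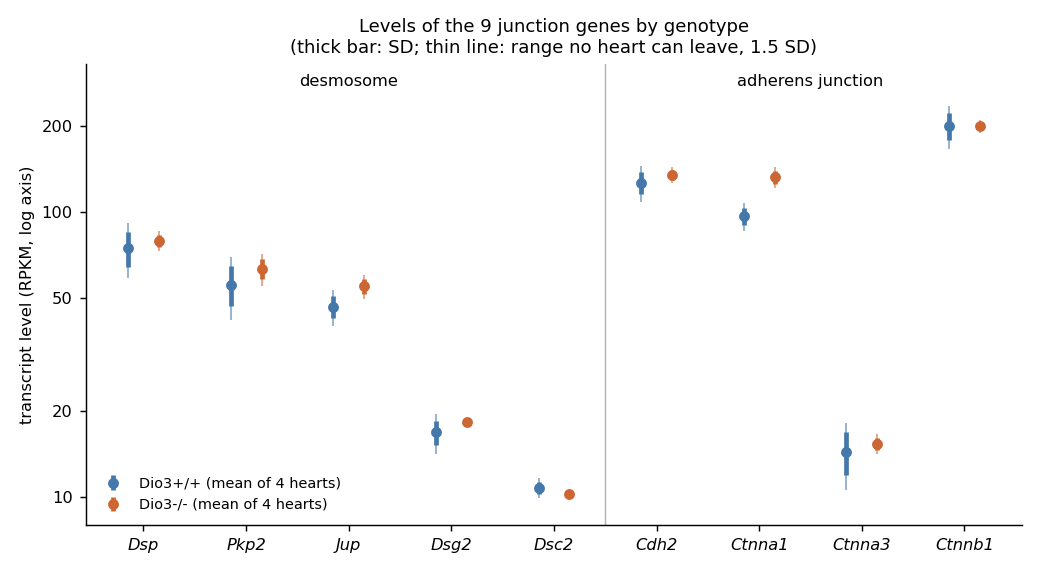
Transcript level in RPKM (log axis) of the 5 desmosome and 4 adherens junction genes in *Dio3*+/+ (blue) and *Dio3*-/- hearts (orange). Points are means of 4 hearts, thick bars the SD, and thin lines the range of 1.5 SD that no heart can leave. Those ranges are apart between genotypes for *Ctnna1* (85.7 to 107.4 against 121.2 to 143 RPKM) and overlap for the other 8 genes.

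The desmosomal cadherins were the lowest of the junction genes together with *Ctnna3*. *Dsg2*, which encodes desmoglein 2, the desmoglein of heart muscle, had 16.87 RPKM (SD 1.69) in *Dio3*+/+ and 18.29 RPKM (SD 0.37) in *Dio3*-/- hearts. All 4 *Dio3*-/- hearts lay between 17.6 and 18.98 RPKM, inside the range of 14.2 to 19.5 RPKM open to the *Dio3*+/+ hearts. The difference of 0.11 on the log2 scale did not pass (95% interval -0.04 to 0.27, limma adjusted p = 0.419). *Dsc2*, which encodes desmocollin 2, the partner of desmoglein 2, was 1 of the 2 genes with a lower mean in *Dio3*-/- hearts. It had 10.81 RPKM (SD 0.54) and 10.24 RPKM (SD 0.20), and its log2 change of -0.07 had a 95% interval from -0.19 to 0.04 (limma adjusted p = 0.476). The ratio of the *Dsg2* to the *Dsc2* mean, both per length, was 1.56 in *Dio3*+/+ and 1.79 in *Dio3*-/- hearts. A difference between ratios could not be tested without single hearts.

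In the RefSeq table of GRCm38.p6, *Dsc2* and *Dsg2* belong to an unbroken row of 9 desmosomal cadherin genes, in the order *Dsc3*, *Dsc2*, *Dsc1*, *Dsg1c*, *Dsg1a*, *Dsg1b*, *Dsg4*, *Dsg3*, *Dsg2*. The 7 others, whose proteins are known from skin and other layered epithelia, were all below the limit for testing, and none had a mean above 0.49 RPKM in either genotype. *Dsc3* had the highest of these means, 0.49 RPKM with a CV of 0.95 in *Dio3*+/+ hearts and 0.19 RPKM (0.33) in *Dio3*-/- hearts. *Dsc1* and *Dsg4* were listed at 0 in *Dio3*+/+ hearts. Thus 1 desmoglein gene and 1 desmocollin gene of this row were above 1 RPKM in both genotypes.

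The genes of the proteins that bind the tails of these cadherins gave the largest differences among the desmosome genes in the deposited scaling, and the smallest relative to cardiomyocyte markers, where *Dsc2* (-0.32) differed most. *Jup*, which encodes plakoglobin, the only member of the 9 whose protein is shared by desmosomes and adherens junctions, had 46.49 RPKM (SD 4.18) in *Dio3*+/+ and 54.74 RPKM (SD 3.28) in *Dio3*-/- hearts. Its mean was 17.8% higher in *Dio3*-/- hearts, and its log2 change of 0.23 had a 95% interval from 0.07 to 0.39 before adjustment for multiple tests. The unadjusted p of 0.00857 became 0.114 after adjustment over all rows by limma, so *Jup* did not pass. An unadjusted p under 0.05 was found for *Jup* and *Ctnna1* among the 9, and for 19.7% of all genes tested. *Pkp2*, which encodes plakophilin 2, had 55.54 RPKM (SD 8.89) and 63.05 RPKM (SD 5.04), a log2 change of 0.18 with a 95% interval from -0.06 to 0.42 (limma adjusted p = 0.411). The SD of *Pkp2* in *Dio3*+/+ hearts alone was larger than the difference of its means.

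*Dsp*, which encodes desmoplakin and has a single row in the table, was the most abundant desmosome gene in both genotypes. Its mean was 74.72 RPKM (SD 10.5) in *Dio3*+/+ and 79.17 RPKM (SD 3.96) in *Dio3*-/- hearts. The difference was smaller than the SD of the *Dio3*+/+ hearts, which could lie anywhere from 58.5 to 91 RPKM. The 95% interval of its log2 change of 0.08 (-0.12 to 0.29, limma adjusted p = 0.683) corresponds to 0.918 to 1.22 times the *Dio3*+/+ level, so a change of *Dsp* as large as that of *Ctnna1* lies outside this interval.

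In the adherens junction, *Cdh2*, which encodes N-cadherin, the cadherin of heart muscle, had 126.61 RPKM (SD 11.4) in *Dio3*+/+ and 134.8 RPKM (SD 5.39) in *Dio3*-/- hearts. Its log2 fold change was 0.09 (95% interval -0.06 to 0.24, limma adjusted p = 0.518). *Ctnnb1*, which encodes β-catenin and also acts in Wnt signaling, was the most abundant of the 9 genes. In the deposited scaling it differed least, with 200.37 RPKM (SD 22) in *Dio3*+/+ and 199.6 RPKM (SD 5.99) in *Dio3*-/- hearts. The log2 change of *Ctnnb1* was -0.01 (95% interval -0.17 to 0.16, limma adjusted p = 0.98), an interval that reaches from 0.886 to 1.12 times the *Dio3*+/+ level. Relative to cardiomyocyte markers the value was -0.25 and passed as lower (limma adjusted p = 0.0278), as did 6663 of the 14657 genes tested.

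The α-catenins, which carry the link to actin, had unlike values. Beside the 36.9% higher *Ctnna1*, *Ctnna3*, which encodes αT-catenin, the form known from heart muscle and testis, had 14.44 RPKM (SD 2.46) in *Dio3*+/+ and 15.41 RPKM (SD 0.77) in *Dio3*-/- hearts. The log2 change of *Ctnna3* was 0.09 (95% interval -0.15 to 0.33, limma adjusted p = 0.7). Its interval reaches above the lower end of that of *Ctnna1* (0.31 to 0.59), and whether both genes responded differently was not tested, since that needs the single hearts. *Ctnna2*, the neural α-catenin, was near 1 RPKM in both genotypes (1.02 and 1.13 RPKM) and did not pass (limma adjusted p = 0.858). By the authors' means, *Ctnna1* made up 87% of the sum of *Ctnna1* and *Ctnna3* in *Dio3*+/+ and 89.6% in *Dio3*-/- hearts.

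The order of the 9 levels was the same in both genotypes, from *Ctnnb1* through *Cdh2*, *Ctnna1*, *Dsp*, *Pkp2*, *Jup*, *Dsg2* and *Ctnna3* to *Dsc2*. In *Dio3*+/+ hearts the ranges of *Cdh2* (from 108.6 RPKM) and *Ctnna1* (up to 107.4 RPKM) were apart. In *Dio3*-/- hearts the ranges overlapped, with means of 134.8 and 132.13 RPKM. Whether these neighbors in the order differed within hearts was not tested, since the single hearts are not given. The ratio of the *Cdh2* to the *Ctnna1* mean was 1.31 in *Dio3*+/+ and 1.02 in *Dio3*-/- hearts, and that of *Ctnna1* to *Ctnnb1* was 0.482 and 0.662. The ranges of *Pkp2* and *Jup* also overlapped in both genotypes. *Ctnna1* and *Dsp*, *Dsp* and *Pkp2*, *Dsg2* and *Ctnna3*, and *Ctnna3* and *Dsc2* overlapped in *Dio3*+/+ hearts and not in *Dio3*-/- hearts, whose spread was smaller. Among all genes tested, 97.7% had a lower mean than *Ctnnb1*, 96.1% than *Ctnna1*, 94.1% than *Dsp* and 53.3% than *Dsc2*.

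The 9 genes have 23 rows in the table, each a UCSC known-gene transcript. Rows of one gene share reads and are not independent. Both rows of *Ctnna1* passed, uc008ely.1 as given above and uc008emb.1 with 80.73 RPKM (SD 5.65) in *Dio3*+/+ and 108.88 RPKM (SD 4.36) in *Dio3*-/- hearts, a log2 change of 0.43 (limma adjusted p = 0.00722). No other row passed. *Pkp2* had the widest relative gap between its rows, from 16.44 RPKM for uc007yib.1 to 55.54 RPKM for uc007yid.1 in *Dio3*+/+ hearts, and yet its 3 rows had log2 fold changes within 0.18 to 0.20. All 4 rows of *Dsc2* had a lower and all 3 rows of *Dsg2* and of *Ctnna3* a higher mean in *Dio3*-/- hearts. The rows of *Ctnnb1* were on both sides of 0, from -0.03 to 0.02. Within the spans of *Ctnna1* and *Ctnna3* the RefSeq table places *Lrrtm2* and *Lrrtm3*, genes of synaptic proteins. The table lists *Lrrtm2* at 0.19 and 0.24 RPKM and *Lrrtm3* at 0.21 and 0.20 RPKM in *Dio3*+/+ and *Dio3*-/- hearts, which is far below the levels of their hosts.

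**Figure D2:**
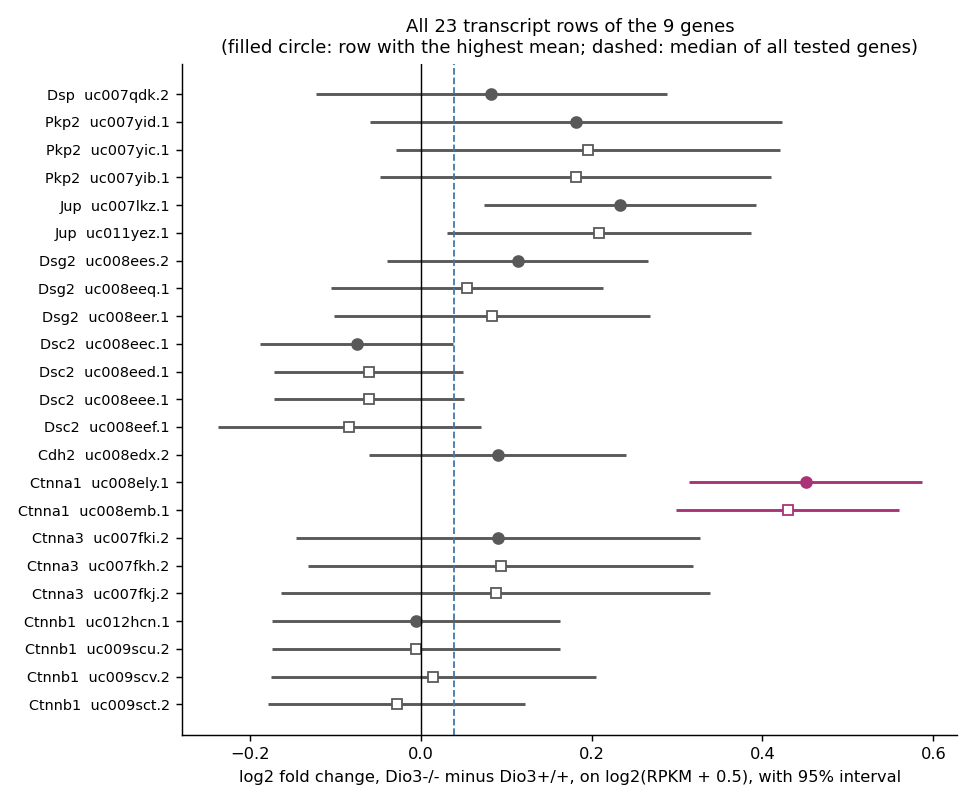
Log2 fold change (*Dio3*-/- minus *Dio3*+/+, on the log2(RPKM + 0.5) scale) with its 95% interval for all 23 transcript rows of the 9 genes. Filled circles mark the row with the highest mean of each gene, open squares the others, purple the rows that passed, and the dashed line the median of all genes tested (0.04). Both *Ctnna1* rows stand to the right (0.45 and 0.43) with intervals above 0.29, and the 4 *Dsc2* rows lie below 0. Relative to cardiomyocyte markers all values lie 0.24 lower.

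The spread between hearts was smaller in *Dio3*-/- than in *Dio3*+/+ hearts for all 9 genes and all 23 rows. The CV had a median of 0.10 in *Dio3*+/+ and 0.05 in *Dio3*-/- hearts over the 9 genes, against 0.09 and 0.06 over all genes tested, of which 65.4% had the lower value in *Dio3*-/- hearts. *Ctnna3* had the highest value of the 9 in *Dio3*+/+ hearts, 0.17, with 0.05 in *Dio3*-/- hearts. *Dsg2* had 0.10 and 0.02. *Ctnna1*, with 0.07 and 0.05, had the most similar spread in both genotypes. The 4 *Dio3*-/- hearts include both hearts whose age field gives E18.5. Whether age bears on the spread was not tested, since the single hearts are not given.

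**Figure D3:**
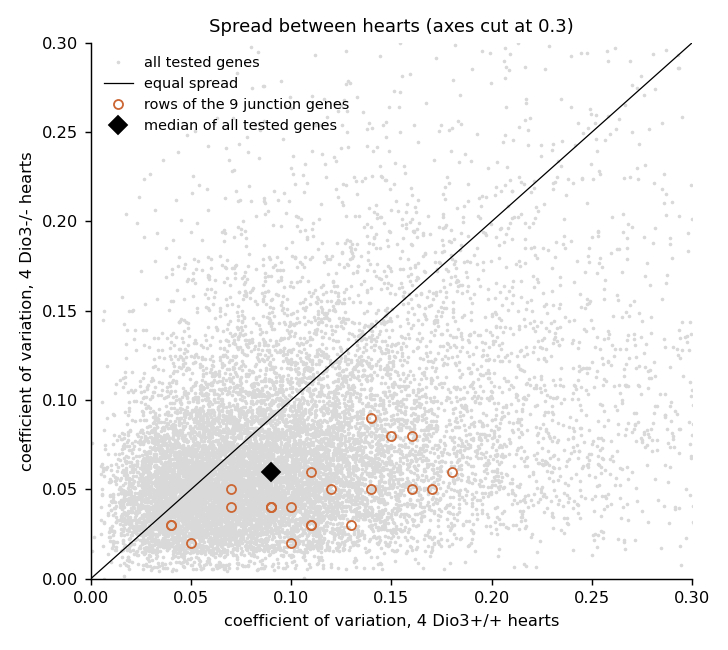
Coefficient of variation between the 4 *Dio3*+/+ hearts (horizontal) and the 4 *Dio3*-/- hearts (vertical) for the 23 rows of the 9 genes (orange rings), all genes tested (gray, shifted by up to 0.005 so that equal values do not hide each other) and the median of all genes tested (black diamond, 0.09 and 0.06). The line marks equal spread, and every orange ring lies below it.

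A list of 58 further symbols of desmosomes, cadherins, catenins and disc proteins gives the setting. Of these, 55 were in the table and 42 were above 1 RPKM in a genotype. Of these 42, 3 passed, all higher in *Dio3*-/- hearts, where 1.91% of all genes tested passed as higher, and the median log2 change of the 42 was 0.09, against 0.04 over all. The 3 belong to the 25 tested partners of the disc and the area composita, of which 22 had a higher mean in *Dio3*-/- hearts (63.3% of all genes tested did) and 12 an unadjusted p under 0.05 (19.7% of all). *Ank3*, which encodes ankyrin-G, an anchor of membrane proteins at the disc that also binds plakophilin 2, had 21.8 RPKM (CV 0.06) and 29.52 RPKM (0.04), a log2 change of 0.43 (SE 0.05, limma adjusted p = 0.00627). All 21 of its rows passed. *Pdlim5*, whose protein binds α-actinin and the Z-disc, had 57.81 RPKM (CV 0.13) and 77.45 RPKM (0.04), a log2 change of 0.42 (limma adjusted p = 0.042). None of the 3 passed under the unmoderated test, and *Pdlim5* also missed under 5 further alternatives.

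Other partners did not pass, those that join the junction to actin or desmin among them. *Vcl*, which encodes vinculin, had means of 67.79 and 72.25 RPKM, a log2 change of 0.09 (limma adjusted p = 0.413). *Tjp1*, which encodes ZO-1, had 44.43 RPKM (CV 0.05) and 51.4 RPKM (0.03). Its hearts cannot overlap between genotypes, and its log2 change of 0.21 had an adjusted p of 0.0595 by limma. *Zyx*, which encodes zyxin, was also without overlap but in the other direction, with 120.6 RPKM (0.01) and 111.61 RPKM (0.02), a log2 change of -0.11 (limma adjusted p = 0.152). *Lpp*, which encodes a relative of zyxin, was without overlap as well, with 14.93 RPKM (0.08) and 18.08 RPKM (0.04), a log2 change of 0.27 (limma adjusted p = 0.0599, and 0.0486 under 2 alternatives). *Des*, which encodes the desmin to which desmoplakin binds, had 217.96 RPKM and 249.11 RPKM (0.19 on the log2 scale, limma adjusted p = 0.279). *Gja1*, which encodes the gap junction protein connexin 43, had 125.81 RPKM and 147.29 RPKM (0.23, limma adjusted p = 0.144), and *Ldb3*, a Z-disc gene, had 105.43 RPKM and 127.05 RPKM (0.27, limma adjusted p = 0.21). Relative to the cardiomyocyte markers, *Vcl* (-0.15, limma adjusted p = 0.0461) and *Zyx* (-0.35, limma adjusted p = 0.00278) passed as lower, as did 6663 of the 14657 genes tested.

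Of 14 other desmosome genes, 3 were tested and none passed by limma (1 by unadjusted p), and *Pkp4* (43.03 and 49.77 RPKM, log2 fold change 0.21, limma adjusted p = 0.0775) was the most abundant of them, followed by *Perp* (32.76 and 35.53 RPKM) and *Ppl* (1.08 and 1.17 RPKM). None of the 14 tested genes among 15 other cadherins and catenins passed either, with a least adjusted p of 0.12 by limma. By unadjusted p 2 of them passed, against 19.7% of all genes tested. Relative to cardiomyocyte markers 6 of these 14 passed as lower, *Ctnnd1* among them (-0.26, limma adjusted p = 0.00628). So did 6663 of the 14657 genes tested, so this count is not particular to cadherins and catenins. *Ctnnd1*, which encodes p120-catenin, the stabilizer of cadherins at the membrane, had 79.29 and 78.23 RPKM. *Cdh5*, the cadherin of endothelium, had 71.96 and 76.52 RPKM, and *Cdh11*, a cadherin of mesenchyme, had 67.71 RPKM with a CV of 0.31 and 62.29 RPKM (0.07). Of 13 targets of Wnt and β-catenin signaling, 10 were tested and none passed by limma (2 by unadjusted p, against 19.7% of all genes). *Ccnd1* (44.27 and 41.71 RPKM), *Bambi* (13.49 and 14.97 RPKM) and *Myc* (12.44 RPKM in both) were the highest of these targets. *Axin2*, a direct target, had 5.3 and 5.15 RPKM (CVs 0.36 and 0.13). *Znrf3*, with 5.72 RPKM (0.03) and 6.48 RPKM (0.02), was without overlap between genotypes, as were 3.85% of all genes tested. Its log2 change of 0.17 did not pass (limma adjusted p = 0.11).

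**Figure D4:**
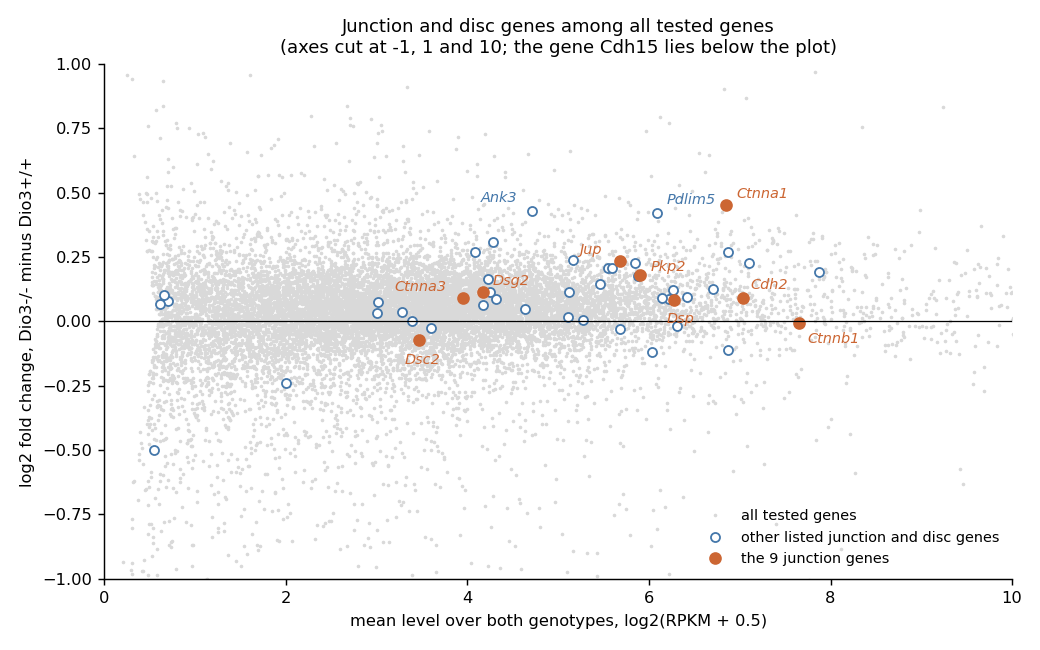
Log2 fold change (*Dio3*-/- minus *Dio3*+/+) against mean level, log2(RPKM + 0.5), for the 9 junction genes (orange), other tested junction and disc genes (open blue circles) and all 14657 genes tested (gray). The axes are cut, which leaves *Cdh15* (log2 fold change -1.92, limma adjusted p = 0.211) below the plot. *Ctnna1* stands above the other 8 junction genes, beside *Pdlim5* and *Ank3*, both named in blue as listed genes that passed.

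Marker genes of the cell types in a heart and near it are given beside these values (*Dio3*+/+ value first in each pair), and their part in the values of the junction genes was not tested. All 10 cardiomyocyte markers had a higher mean in *Dio3*-/- hearts, as did 63.3% of all genes tested. *Actc1* (4778.41 and 5638.08 RPKM) and *Tnnt2* (1212.43 and 1280.77 RPKM), genes of cardiac actin and troponin T, were the most abundant. The levels of the 10 summed to 8190 and 9649 RPKM, with a median log2 change of 0.24. Only *Ryr2*, the calcium release channel, passed among the 10 (24.2 and 36.62 RPKM, limma adjusted p = 0.0231), and 7 had an unadjusted p under 0.05. The log2 changes of the 10 ran from 0.08 for *Tnnt2* to 0.59 for *Ryr2*, a range that holds the 0.45 of *Ctnna1*. Relative to these markers, with their median taken as known without error, *Ctnna1* passed with a log2 change of 0.21. Whether *Ctnna1* differed from the markers beyond their own spread was not tested. The other 8 junction genes all turned to or stayed at negative values, from -0.32 for *Dsc2* to -0.01 for *Jup*. *Dsc2* and *Ctnnb1* passed as lower, as did 6663 of the 14657 genes tested under this centering. The markers of red blood cells summed to 37290 and 12750 RPKM and all 7 were lower in *Dio3*-/- hearts, led by the embryonic globins *Hbb-y* (29100.96 and 9908.94 RPKM) and *Hba-x* (7388.93 and 2529.68 RPKM), which did not pass. *Hbb-bh1*, another embryonic globin, did (317.82 and 110.93 RPKM, limma adjusted p = 0.0468). An unadjusted p under 0.05 was found for all 7, and for 19.7% of all genes tested.

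All 8 liver markers had higher means in *Dio3*-/- hearts and an unadjusted p under 0.05, against 63.3% and 19.7% of all genes tested. Their least adjusted p by limma was 0.121, however, with a median CV of 0.99 in *Dio3*+/+ and 1.12 in *Dio3*-/- hearts. The 8 summed to 15.98 and 108.1 RPKM, with *Afp* (5.11 and 44.57 RPKM) and *Alb* (5.16 and 36.06 RPKM) highest. The 8 endothelial markers, with *Cdh5* and *Pecam1* (44.63 and 48.2 RPKM) highest, summed to 282.3 and 303.1 RPKM. The 8 epicardial markers, with *Upk3b* (31.36 and 32.08 RPKM) and *Tbx18* (20.11 and 19.67 RPKM), summed to 120.5 and 128.6 RPKM. None of either list passed by limma, with unadjusted p values under 0.05 for 3 and 2 genes of 8, against 19.7% of all genes tested. The 8 markers of fibroblasts and cushions, with *Col3a1* (210.59 and 182.56 RPKM) and *Col1a1* (203.93 and 168.3 RPKM), summed to 855.8 and 749.5 RPKM. Their median CV was 0.445 in *Dio3*+/+ and 0.045 in *Dio3*-/- hearts. The 6 markers of macrophages, with *C1qb* (8.1 and 8.3 RPKM) and *Csf1r* (7.5 and 7.17 RPKM), summed to 32.97 and 31.34 RPKM. Their median CVs were 0.325 and 0.065. Of these lists none passed by limma, with 0 unadjusted p values under 0.05. Of 8 epithelial markers, included because epithelia are rich in desmosomes, 6 were tested and none passed by limma (1 by unadjusted p). The sum of all 8, tested or not, was 47.59 and 48.78 RPKM, with *Krt19* (22.65 and 25.34 RPKM) and *Krt7* (9.68 and 10.71 RPKM) highest. Lower means in *Dio3*-/- hearts were those of *Krt18* (7.03 and 6.47 RPKM), *Krt5* (2.37 and 0.93 RPKM) and *Krt14* (1.36 and 0.54 RPKM), and the defining *Epcam* and *Cdh1* were below 1 RPKM in both genotypes. Of 8 neural and Schwann cell markers, 3 were tested and *Tubb3* passed (70.2% higher in *Dio3*-/- hearts, limma adjusted p = 0.00856). No marker of any list was at 0 in both genotypes.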

How the data were processed

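Total RNA of whole fetal hearts was depleted of ribosomal RNA and sequenced as single-end reads. Per the labels and methods, the authors aligned reads with Novoalign (version 2.08), kept those that map uniquely, and scaled every sample linearly to the smallest one. The authors deposited mean RPKM values per genotype and, as a ratio of SD to mean, the coefficient of variation, both rounded to 2 decimals. The table does not name the RPKM unit, which is taken from the filter in the methods. The genome build is not given in the sources used here, so no coordinates are given. Columns of the authors' own fold changes and q values were not used.

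The 32703 of 51414 rows with a mean above 1 RPKM in a genotype were tested. Means were taken to log2(RPKM + 0.5), SDs were carried to that scale by first-order approximation, and limma (version 3.58.1, in R 4.3.3) moderated the pooled variance along a trend with the mean, from 6 residual and 3.52 prior degrees of freedom. The procedure was tested on simulated rows, drawn independently and with equal CVs in both genotypes, which the real rows do not share. It found 173 of 200 rows changed 1.5-fold, with 14 false calls. Where no row was changed it made 0 calls. The largest coefficient of variation, 2, is the one that 4 values give with an SD over n - 1, which sets the limit of 1.5 SD. Limits were widened by the rounding of the deposited values.

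A gene was counted as passing by its row with the highest mean. The p-values set the difference of the genotype means against the spread between hearts, and whether hearts shared litters is not stated. The 9 genes and the lists were chosen with earlier results of these data known. Besides the 9, the genes named were all that passed and the 3 highest in each junction list, the 2 highest of each marker list, and *Epcam*, *Cdh1*, the Wnt targets, *Cdh15*, *Ctnna2*, *Vcl*, *Tjp1*, *Zyx*, *Lpp*, *Krt5*, *Krt14*, *Krt18* and genes of the desmosomal cadherin row, chosen after their values were seen. Some genes that this rule names are counted in the lists but not reported here. All 9 were found in the RefSeq table, used for gene order only. Alternatives were pseudocounts of 0.1 and 1, no filter, a mean above 5 RPKM, no trend, 1 row per gene, Welch's test, centering on all rows or on the cardiomyocyte markers, coefficients of variation raised by 0.005, no rows with one above 0.5, and the median over the rows of a gene.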

Additional observations from a re-analysis of the deposited data

How the results depend on the processing

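*Ctnna1* passed under 10 of 11 alternatives, with log2 fold changes from 0.21 to 0.45 and adjusted p values by limma from 0.00397 to 0.0243, and missed under Welch's test (0.0824), where 0 of the 9 junction genes, 0 of the 42 listed junction and disc genes and 27 of all genes passed. Welch's test does not share the variance over rows. The number of all genes that passed was 336 and became 197 without the expression filter, 180 when centered on all tested rows (a shift of 0.04) and 187 with coefficients of variation raised by 0.005. Centering on the cardiomyocyte markers takes 0.24 from every log2 fold change, as if that shift were known without error. It gave 6782 genes in all, of which 6663 passed as lower, and 17 listed junction and disc genes in place of 3. Of the 9 junction genes 3 passed, with *Dsc2* (-0.32, adjusted p = 0.00537) and *Ctnnb1* (-0.25, adjusted p = 0.0278) passing as lower by limma beside *Ctnna1*. This centering also turned the sign of *Dsp* (-0.16), *Pkp2* (-0.0605), *Jup* (-0.0086), *Dsg2* (-0.13), *Cdh2* (-0.15) and *Ctnna3* (-0.15), none of which passed. Of the listed genes, *Ank3* passed under every alternative but Welch's test, and *Pdlim5* did not pass without the filter, without the trend, with either centering or with raised coefficients. No paired analysis was possible because the table holds no single hearts, and no heart could be left out for the same reason.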
